A study of Mus musculus with 6 samples.

Results

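The miR-30 family was followed in small RNAs bound to Argonaute (Ago) proteins in the mouse brain. Its members were taken as the 10 miRNA labels mmu-miR-30a-5p, mmu-miR-30b-5p, mmu-miR-30c-5p, mmu-miR-30d-5p, mmu-miR-30e-5p, mmu-miR-30a-3p, mmu-miR-30b-3p, mmu-miR-30c-2-3p, mmu-miR-30d-3p and mmu-miR-30e-3p, by name and not by any measured value. These were 10 of the 1091 miRNA labels in the table, and they held 2479 of its 143934 read sequences. Cortex and hippocampus were combined, from C57BL/6J mice of 2 months (2M, 3 libraries) and 18 months (18M, 3 libraries), which per the study's methods were male. The labels name no transgene or treatment. Ago1 to Ago4 were pulled down with a peptide of GW182, and the small RNAs that came with them (RISC-bound small RNAs, R-sRNAs) were sequenced. All levels are in RPM, reads per 1000000 reads of a library, and each deposited column was made of 19272046 to 25080484 whole reads. The labels do not say that each library came from a separate animal, so p-values measure the spread between libraries.

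A miRNA hairpin gives a 5p and a 3p strand, of which usually one is kept by Ago as the guide. The guide finds its targets with its seed, the bases from position 2 to 7 or 8, so miRNAs that share a seed share many targets. The 5p strands of miR-30 are the usual guides, carry one common seed and are known for restraining targets such as Becn1 of autophagy and the Notch ligand Dll4. A read whose 5′ end is moved by 1 base carries another seed, whereas a change at the 3′ end leaves the seed as it is.

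The mature sequences below show what the members share and where they part. They are from RefSeq (GRCm38.p6), 5′ to 3′, with the seed (bases 2 to 8) in capitals.
mmu-miR-30a-5p: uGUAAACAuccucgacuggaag
mmu-miR-30e-5p: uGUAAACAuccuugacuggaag
mmu-miR-30c-5p: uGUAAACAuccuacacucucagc
mmu-miR-30a-3p: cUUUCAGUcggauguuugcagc
mmu-miR-30e-3p: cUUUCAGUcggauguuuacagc
mmu-miR-30c-2-3p: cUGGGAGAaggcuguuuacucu
The 3 5p strands shown are alike over their first 12 bases. Counted from the 5′ end, mmu-miR-30a-5p and mmu-miR-30e-5p differ by 1 base (C13U), and mmu-miR-30a-3p and mmu-miR-30e-3p also differ by 1 base (G18A). The 3p strands thus fall into different seed groups, and that of mmu-miR-30c-2-3p is shared with mmu-miR-30c-1-3p, the 3p strand of the other miR-30c hairpin, which is no member here.

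On GRCm38, Mir30a lies at chr1:23272269-23272339 on the + strand, in no other annotated gene of that strand. Mir30c-2 follows 19361 bases further at chr1:23291701-23291784 (+), inside Gm27028 and overlapping an exon of it. Mir30e (chr4:120772606-120772697) and Mir30c-1 (chr4:120769534-120769622) both lie on the - strand, 2983 bases apart, in introns of Nfyc, which encodes a subunit of the transcription factor NF-Y. The strand mmu-miR-30c-5p is the same from Mir30c-1 and Mir30c-2, so its reads cannot be assigned to either gene.

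Reads with a miRNA label made up 95.6% to 96.3% of each library. Of the cell type markers, the 7 neuronal miRNAs summed to 244184 to 259468 RPM at 2M and 221331 to 278454 RPM at 18M, and the 3 oligodendrocyte miRNAs to 6659 to 13932 RPM and 7556 to 11213 RPM. The 6 miRNAs of microglia and other immune cells summed to 3776 to 4111 RPM at 2M and 2834 to 3402 RPM at 18M. These 2 ranges did not overlap, and neither did the ages for 24% of the 466 single labels tested. Of the 5 immune miRNAs tested, 2 were higher at 18M, and none passed limma at an adjusted p of 0.05. The 4 vessel miRNAs (11390 to 17001 and 10104 to 13607 RPM), the 3 erythrocyte miRNAs (2540 to 3677 and 1300 to 2882 RPM) and the 8 of choroid plexus and epithelium (38455 to 45555 and 31413 to 53338 RPM) overlapped between ages. 18M replicate 2 was the lowest of the 6 libraries for 173 of the 466 labels with a mean of at least 10 RPM (37.1%), and its values are given separately where they decide a result. In such bulk tissue, fewer cells of a type and less RNA per cell cannot be told apart.

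The family was one of the large ones in the RISC. Its 10 members summed to 45604, 40593 and 46242 RPM at 2M and to 48855, 42059 and 49078 RPM at 18M, 4.73% of all miRNA reads on average. Young libraries averaged 44146 ± 3094 RPM (SD, n = 3), and old ones 46664 ± 3990 RPM (SD, n = 3). The ages overlapped, and the exact two-sided permutation test gave p = 0.50, where 0.10 is the smallest p that 3 against 3 libraries allow. Under median-of-ratios scaling, which divides a library by the median ratio of its labels, the difference was 5311 instead of 2517.5 RPM, with that smallest p of 0.10 in the exact permutation test, so the overlap of the ages depended on the scaling. The family total had a coefficient of variation of 7.66% over the 6 libraries, against 8.30% for the let-7 family, 11.2% for the miR-26 family and 27.7% for the miR-29 family.

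The 5p strands carried nearly all of it. mmu-miR-30c-5p was the most abundant member in every library, with 12405, 11436 and 12410 RPM at 2M and 13559, 11815 and 14258 RPM at 18M, and ranked 18 of 1091 labels by its mean. mmu-miR-30d-5p followed with 9711, 8390 and 9111 RPM at 2M and 8643, 8683 and 8553 RPM at 18M. Its 18M libraries lay very close together, inside the range of the 2M libraries.

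mmu-miR-30e-5p was read at 7470, 7234 and 8003 RPM at 2M and at 9504, 6715 and 8721 RPM at 18M, where replicate 2 fell below all young libraries and the other 2 above them. mmu-miR-30b-5p gave 7536, 6142 and 8424 RPM at 2M and 7975, 6824 and 8604 RPM at 18M. mmu-miR-30a-5p gave 7281, 6290 and 7298 RPM at 2M and 8157, 6884 and 7816 RPM at 18M. For each of these 3 members the ages overlapped. They ranked 31, 32 and 38 among the labels, and the means of all 5 guide strands over the 6 libraries stood within a factor of 1.74 of each other.

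The order among these guides held only in part. mmu-miR-30c-5p was above mmu-miR-30d-5p in 6 of 6 libraries, by 0.51 ± 0.15 (SD, log2 ratio of RPM), with p = 0.0313 in an exact sign-flip test over libraries, the smallest it can give, and p = 0.083 after adjustment over the 8 neighbouring pairs. The neighbours mmu-miR-30d-5p and mmu-miR-30e-5p (in order in 4 of 6 libraries, exact adjusted p = 0.20), mmu-miR-30e-5p and mmu-miR-30b-5p (3 of 6, exact adjusted p = 0.50) and mmu-miR-30b-5p and mmu-miR-30a-5p (3 of 6, exact adjusted p = 0.42) did not differ beyond their spread. By comparison the highest guide stood in the mean 44.9-fold above the lowest in the let-7 family, 4.55-fold in the miR-29 family and 15.1-fold in the miR-26 family.

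**Figure D1:**
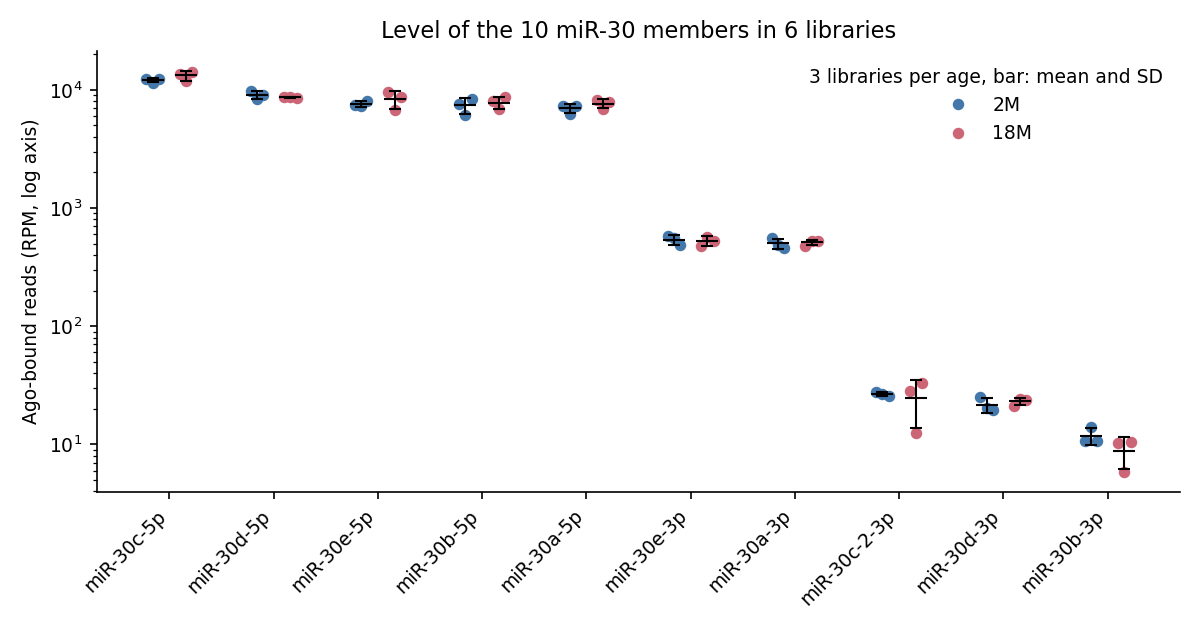
Level of the 10 miR-30 members in RPM (log axis) in each of 3 libraries at 2M (blue) and 3 at 18M (red), with the mean and SD as bars. The 5 guide strands lie between 6142 and 14258 RPM, mmu-miR-30a-3p and mmu-miR-30e-3p between 458 and 580 RPM, and the remaining 3 members at 5.84 to 32.9 RPM.

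The 3p strands fell into an upper and a lower group. mmu-miR-30e-3p was read at 580, 552 and 482 RPM at 2M and at 475, 572 and 530 RPM at 18M. mmu-miR-30a-3p gave 557, 488 and 458 RPM at 2M and 481, 524 and 529 RPM at 18M. They ranked 147 and 150 of the 1091 labels, and mmu-miR-30e-3p was the higher in 5 of 6 libraries (exact sign-flip p = 0.094, adjusted p = 0.19).

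The other 3p strands were far below these. mmu-miR-30c-2-3p had 27.8, 26.7 and 25.6 RPM at 2M and 28.2, 12.5 and 32.9 RPM at 18M. mmu-miR-30d-3p had 25.1, 20.2 and 19.3 RPM at 2M and 21.3, 24.3 and 23.9 RPM at 18M. mmu-miR-30b-3p had 10.6, 14.0 and 10.8 RPM at 2M and 10.3, 5.84 and 10.5 RPM at 18M. The low values of mmu-miR-30c-2-3p and mmu-miR-30b-3p both came from 18M replicate 2, in which mmu-miR-30d-3p was at its highest of that age. Between mmu-miR-30a-3p and mmu-miR-30c-2-3p the log2 ratio was 4.36 ± 0.52 (SD), in this order in 6 of 6 libraries (exact sign-flip p = 0.0313, adjusted p = 0.083).

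The ratio of 5p to 3p reads therefore differed widely between hairpins. For miR-30a it was 13.1, 12.9 and 15.9 at 2M and 17.0, 13.1 and 14.8 at 18M. For miR-30e it was 12.9, 13.1 and 16.6 at 2M and 19.99, 11.7 and 16.5 at 18M. These 2 hairpins, whose 3p strands differ by 1 base, did not differ in arm ratio beyond their spread (exact sign-flip p = 0.41).

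The other hairpins kept the 3p strand far less. For miR-30d the ratio ran from 358 to 471 over the 6 libraries. For miR-30c, taken as mmu-miR-30c-5p over mmu-miR-30c-2-3p, it ran from 428 to 949, and since mmu-miR-30c-5p reads come from 2 genes this is a ceiling on that of Mir30c-2 alone. Set against the 3p reads of both miR-30c hairpins, mmu-miR-30c-1-3p included, it ran from 216 to 467. For miR-30b it ran from 439 to 1168. The highest values of miR-30c and of miR-30b came from 18M replicate 2. On the log2 scale miR-30d lay above miR-30e by 4.74 ± 0.28 (SD), in 6 of 6 libraries (exact sign-flip p = 0.0313, adjusted over 4 neighbouring pairs p = 0.0417). The order of miR-30c and miR-30d depended on which 3p reads were counted. Its ratio lay above that of miR-30d by 0.37 ± 0.52 with mmu-miR-30c-2-3p alone (6 of 6 libraries), or by 0.16 ± 0.11 without 18M replicate 2, and by -0.56 ± 0.48 with the 3p reads of both hairpins, below miR-30d in 5 of 6 libraries (exact sign-flip p = 0.0625).

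**Figure D2:**
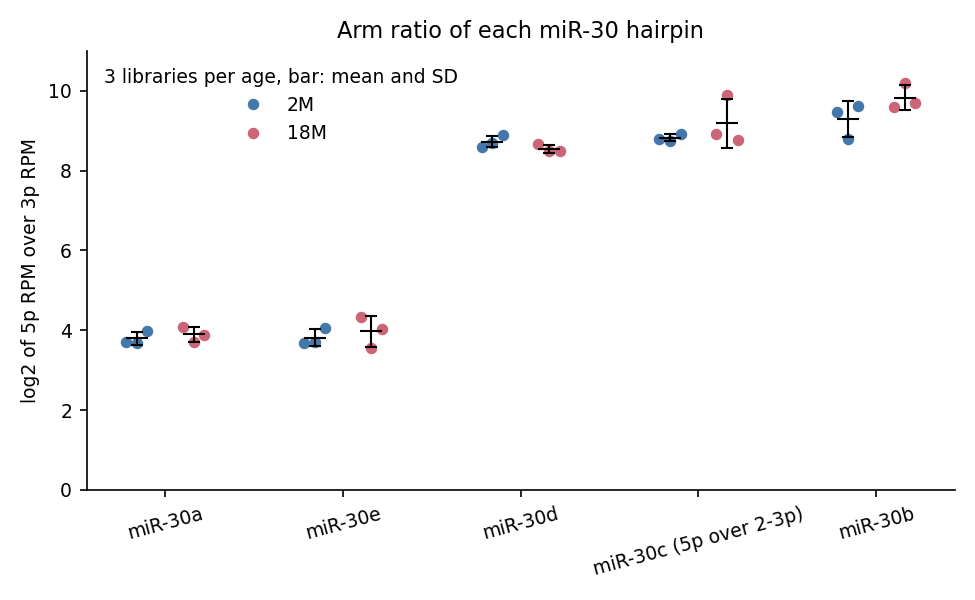
Arm ratio of the 5 hairpins as log2 of 5p RPM over 3p RPM, per library at 2M (blue) and 18M (red), with the mean and SD as bars. miR-30a and miR-30e lie between 3.55 and 4.32, and the other 3 hairpins between 8.48 and 10.2.

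As a whole the 3p strands made up 2.63%, 2.71% and 2.15% of member reads at 2M and 2.08%, 2.71% and 2.29% at 18M. Young libraries averaged 2.50% ± 0.30 (SD, n = 3) and old ones 2.36% ± 0.32 (SD, n = 3), with an exact permutation p of 0.70. The minor strand took a like share in the let-7 family (2.40% to 3.39% over 6 libraries), a share of 1.21% to 1.95% in the miR-29 family and of 0.035% to 0.054% in the miR-26 family.

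The comparison of 18M with 2M asked whether the RISC content of the brain changes with age. None of the 10 members passed the test of a change with age. On the log2(RPM + 1) scale, limma gave differences of 18M over 2M from -0.40 for mmu-miR-30b-3p to 0.13 for mmu-miR-30a-5p, with adjusted p of 0.43 and above over the 466 labels tested. Among all tested labels 3.22% passed the adjusted threshold of 0.05. At an unadjusted p under 0.05 limma also called 0 of the 10 members, against 17% of all labels. The median difference of the 10 members was 0.06, beside -0.07 for all labels, and median-of-ratios scaling moved these to 0.15 and 0.02.

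The intervals show how large a change these libraries leave possible. For mmu-miR-30c-5p the difference was 0.13 with a 95% interval from -0.15 to 0.40 (log2), so that a fall below 0.90-fold or a rise above 1.32-fold lies outside it. The interval of mmu-miR-30a-5p ran from -0.17 to 0.43, that of mmu-miR-30e-5p from -0.25 to 0.49 and that of mmu-miR-30b-5p from -0.30 to 0.47. For mmu-miR-30d-5p the difference was -0.07 (95% interval -0.32 to 0.18), and its sign turned to 0.02 under median-of-ratios scaling.

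Among the 3p strands, mmu-miR-30a-3p differed by 0.03 (95% interval -0.27 to 0.33) and mmu-miR-30e-3p by -0.03 (-0.35 to 0.29), the latter turning to 0.06 under median-of-ratios scaling. mmu-miR-30d-3p differed by 0.11 (-0.23 to 0.45). The intervals of the rarer strands were wide, from -1.04 to 0.59 for mmu-miR-30c-2-3p and from -0.997 to 0.19 for mmu-miR-30b-3p. Without 18M replicate 2 the difference of mmu-miR-30c-2-3p turned from -0.22 to 0.18, and that of mmu-miR-30b-3p shrank to -0.16. The 3p strand mmu-miR-30c-1-3p differed by -0.20 (adjusted p = 0.75 in limma).

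**Figure D3:**
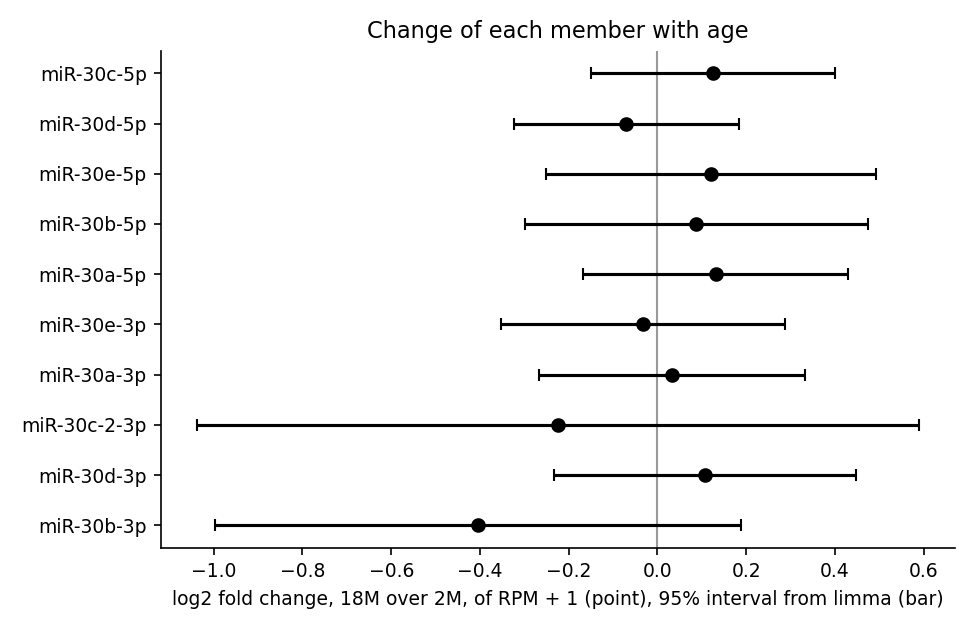
Difference of 18M over 2M for each member on the log2(RPM + 1) scale (point) with its 95% interval from limma (bar), ordered by level. All 10 intervals include 0, and those of mmu-miR-30c-2-3p and mmu-miR-30b-3p are the widest.

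Of the members only mmu-miR-30b-3p had ages that did not overlap, 1 of 10, while 24% of all tested labels did. Count tests on the whole reads recovered from the table called no member either. In edgeR's quasi-likelihood test 3% of labels passed an adjusted p of 0.05 and the lowest adjusted p of a member was 0.39. In DESeq2 9.23% of labels passed, and mmu-miR-30c-5p alone among members reached an unadjusted p under 0.05 (0.045, log2 fold change 0.22, adjusted p = 0.25), as did 19.3% of all labels. Without 18M replicate 2, mmu-miR-30e-5p reached 0.27 with an unadjusted p of 0.048 and an adjusted p of 0.26 in limma, a fit in which 19.4% of all labels had an unadjusted p under 0.05.

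The share of each guide in the 5p reads was compared between ages. mmu-miR-30c-5p made up 28.1% ± 0.78 (SD, n = 3) of 5p reads at 2M and 28.98% ± 0.70 at 18M. mmu-miR-30d-5p made up 21.1% ± 0.88 and 19.0% ± 1.89, with 21.9%, 21.2% and 20.1% at 2M against 18.1%, 21.2% and 17.8% at 18M. The low values were those of 18M replicates 1 and 3, and replicate 2 was within the young range. Without it the difference was -3.13 instead of -2.04 percentage points and the ages did not overlap. That library was singled out after its values were seen, and how many measures separate without it was not counted. With all 6 libraries the ages overlapped (exact permutation p = 0.20, adjusted p = 0.90). The shares of mmu-miR-30e-5p (17.6% and 18.2%), mmu-miR-30b-5p (17.0% and 17.1%) and mmu-miR-30a-5p (16.2% and 16.7%) differed by less than 1 percentage point in mean between ages. For the 54 measures taken per library, 3 against 3 libraries cannot give an exact permutation p under 0.10, so this test could call none of them.

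By seed, the family gave the RISC one of its leading seeds. The seed GUAAAC (positions 2 to 7) of the 5p strands ranked 5 of the 4032 seeds and took 4.02% to 4.84% of the reads of a library. Members supplied 96.1% of its reads, and the largest other label was mmu-miR-384-5p with 1003 RPM. Its level averaged 43352 ± 2805 RPM (SD, n = 3) in young libraries and 45963 ± 4072 RPM in old ones, a limma difference of 0.08 (95% interval -0.18 to 0.35, adjusted p = 0.77), where 0.905% of the 1105 seeds tested passed.

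The 3p seeds were rare. The seed UUUCAG of mmu-miR-30a-3p, mmu-miR-30d-3p and mmu-miR-30e-3p stood at 920 RPM and rank 84, with 99.0% of its reads from members. The seed UGGGAG stood at 43.8 RPM, of which mmu-miR-30c-2-3p supplied 53.7% and mmu-miR-30c-1-3p most of the rest with 19.6 RPM. The table gives each seed a viability score, which is the surviving percent of cells given an siRNA carrying it, as the mean for 3 lines of mouse cells. The score was 76.4 for GUAAAC, 70.1 for UUUCAG, 30.8 for UGGGAG and 19.0 for the main seed of mmu-miR-30b-3p. Weighted by reads, the family's score was 76.5 at both ages (exact permutation p = 0.70), while that of all reads was 58.0 ± 0.11 (SD, n = 3) for the young and 57.7 ± 0.25 for the old libraries (exact permutation p = 0.10).

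The members differed in how their reads ended, which names alone do not show. mmu-miR-30b-5p was mostly 1 sequence, a read of 22 nt that made up 76.2% to 80.5% of its reads in the 6 libraries. A read of 21 nt followed with 12.4%. The main read of a label is here the sequence with the highest mean over the 6 libraries. By the share of its main read, mmu-miR-30b-5p ranked 11 among 273 labels with a mean of at least 100 RPM. In mmu-miR-30c-5p the main read, of 24 nt, took 34.2% to 42.1%. In mmu-miR-30a-5p, mmu-miR-30d-5p and mmu-miR-30e-5p the read with the highest mean was of 20 nt and took 17.9% to 24.6%, 23.1% to 26.03% and 17.9% to 29.3%, beside a median of 46.0% over the 273 labels. It led in 6 of 6 libraries for mmu-miR-30d-5p, in 3 of 6 for mmu-miR-30e-5p, where the 24 nt read led in the rest, and in 2 of 6 for mmu-miR-30a-5p, where reads of 21, 22 or 24 nt led in the rest. The share of the main read was higher in mmu-miR-30b-5p than in mmu-miR-30c-5p by 39.2 ± 1.95 percentage points (SD), in 6 of 6 libraries (exact sign-flip p = 0.0313, adjusted p = 0.0375 over 150 contrasts of read forms). Any of these contrasts with the same order in 6 of 6 libraries has these p-values whatever its size, so they bear on the order alone.

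The main reads are shown here, with T as in the table and the seed in capitals, because their 3′ ends differ while their seed does not.
mmu-miR-30a-5p, 20 nt: tGTAAACAtcctcgactgga
mmu-miR-30a-5p, 21 nt: tGTAAACAtcctcgactggaa
mmu-miR-30a-5p, 24 nt: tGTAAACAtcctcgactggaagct
mmu-miR-30e-5p, 20 nt: tGTAAACAtccttgactgga
mmu-miR-30e-5p, 24 nt: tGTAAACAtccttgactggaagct
mmu-miR-30c-5p, 24 nt: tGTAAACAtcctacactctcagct
mmu-miR-30c-5p, 23 nt: tGTAAACAtcctacactctcagc
For mmu-miR-30a-5p these reads stood at 1473, 1259 and 1253 RPM over the 6 libraries, for mmu-miR-30e-5p at 1880 and 1729 RPM and for mmu-miR-30c-5p at 4899 and 3002 RPM. The 22 nt read of mmu-miR-30a-5p, the RefSeq form, stood at 1242 RPM, close to these, and that of mmu-miR-30e-5p at 921 RPM.

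The length profiles differed between members. Reads of mmu-miR-30e-5p had peaks at 20 nt (23.7% ± 4.05, SD over 6 libraries) and 24 nt (23.1% ± 3.31) with 12.9% ± 3.56 at 21 nt between them. Those of mmu-miR-30a-5p lay nearly even from 20 to 24 nt, at 16.7% to 20.96% each. In mmu-miR-30c-5p 40.2% ± 2.81 were of 24 nt and 26.3% ± 3.26 of 23 nt, and in mmu-miR-30b-5p 79.3% ± 1.49 were of 22 nt. The mean length of mmu-miR-30c-5p exceeded that of mmu-miR-30a-5p by 1.02 ± 0.06 nt (SD), in 6 of 6 libraries (exact sign-flip p = 0.0313, adjusted p = 0.0375), and ranked 9 of the 273 labels.

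**Figure D4:**
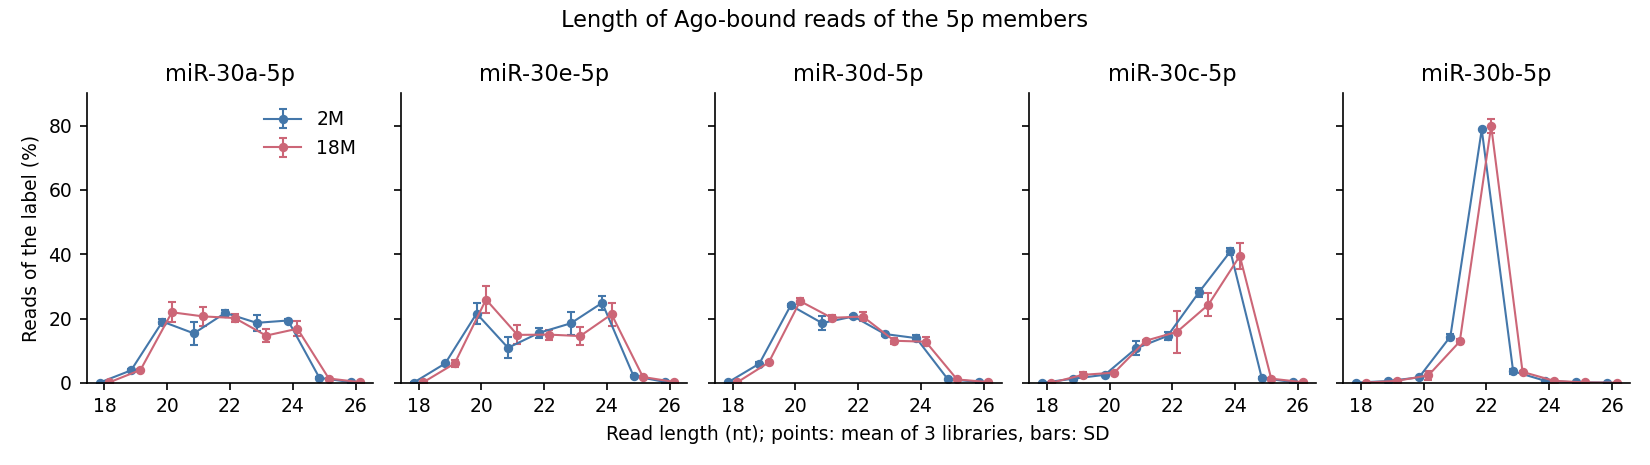
Percent of reads of each 5p member by read length in nt, as the mean (points) and SD (bars) of 3 libraries at 2M (blue) and 3 at 18M (red). mmu-miR-30b-5p has a single peak at 22 nt, mmu-miR-30c-5p rises to 24 nt, and the other 3 members spread from 20 to 24 nt.

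The mean length of 4 guides was lower in the old than in the young libraries on average. For mmu-miR-30e-5p it was 22.03 ± 0.17 nt (SD, n = 3) in young and 21.78 ± 0.17 nt in old libraries, with 22.07, 22.18 and 21.85 nt against 21.68, 21.99 and 21.69 nt. For mmu-miR-30a-5p it was 21.98 ± 0.09 nt and 21.76 ± 0.15 nt, a difference of -0.21 nt. These differences of -0.25 and -0.21 nt were among the 5 lowest of the 273 labels, whose median was -0.01 nt, with an exact permutation p of 0.20 for each (adjusted p = 0.90). For mmu-miR-30c-5p the difference was -0.15 nt and for mmu-miR-30d-5p -0.10 nt, while for mmu-miR-30b-5p it was -0.004 nt. In mmu-miR-30a-5p, mmu-miR-30c-5p, mmu-miR-30d-5p and mmu-miR-30e-5p the ages overlapped through 18M replicate 2 alone, and replicates 1 and 3 lay below every young library. Without it the differences were -0.35 nt for mmu-miR-30e-5p, -0.30 nt for mmu-miR-30a-5p, -0.23 nt for mmu-miR-30c-5p and -0.14 nt for mmu-miR-30d-5p. With all 6 libraries, 18.7% of the 273 labels had mean lengths that did not overlap between ages, and none of these 5 guides was among them. 18M replicate 2 was singled out after its values were seen, and how many labels separate without it was not counted.

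At the level of single sequences, 108 member reads had a mean of at least 10 RPM, and none passed an adjusted p of 0.05 in limma, where 0.366% of all 3281 tested sequences did. At an unadjusted p under 0.05 there were 4 member reads, all higher at 18M, against 13% of all sequences. They were singled out after their values were seen. The 19 nt read of mmu-miR-30c-5p went in mean from 151 ± 40.0 RPM (SD, n = 3) to 327 ± 154 RPM (limma adjusted p = 0.30), with 175, 105 and 173 RPM at 2M and 283, 201 and 499 RPM at 18M. A 22 nt read of the same member with a terminal U that the hairpin does not hold went from 7.10 ± 0.58 to 14.0 ± 2.88 RPM (limma adjusted p = 0.18). The other 2 were reads of mmu-miR-30a-5p, of 22 nt with such a U (21.5 and 30.3 RPM) and of 19 nt with a 5′ end moved by 1 base (12.6 and 17.6 RPM), with limma adjusted p of 0.29 and 0.34.

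The 3p strands of miR-30a and miR-30e mostly ended otherwise than in RefSeq. Their main reads are shown because their last base is not that of the hairpin.
mmu-miR-30a-3p, main read: cTTTCAGTcggatgtttgcagt
mmu-miR-30a-3p, next read: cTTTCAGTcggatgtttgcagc
mmu-miR-30e-3p, main read: cTTTCAGTcggatgtttacagt
mmu-miR-30e-3p, next read: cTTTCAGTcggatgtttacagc
The next read is the RefSeq form in each case. For mmu-miR-30a-3p the main read stood at 111, 96.7 and 103 RPM at 2M and at 92.0, 115 and 113 RPM at 18M, close to the 101.2 RPM of the RefSeq form. For mmu-miR-30e-3p it stood at 189, 179 and 184 RPM at 2M and at 157, 215 and 186 RPM at 18M, above the 148 RPM of the RefSeq form in the mean.

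Each read of miR-30a, miR-30c and miR-30e was then laid on its RefSeq hairpin, and up to 3 bases beyond the match were taken as an untemplated tail. An untemplated U tail was on 29.95% to 35.2% of mmu-miR-30a-3p reads and on 36.1% to 41.9% of mmu-miR-30e-3p reads in the 6 libraries. In nearly all of them the U took the place of the last base of the RefSeq form (31.7% and 37.5% of reads on average), and A tails were on 5.45% and 3.75%. On the 5p strands U tails were on 2.32% of mmu-miR-30a-5p, 1.54% of mmu-miR-30c-5p and 3.08% of mmu-miR-30e-5p reads, and on 2.23% of mmu-miR-30c-2-3p reads. The difference between the strands of one hairpin was 29.8 ± 2.15 percentage points (SD) for miR-30a and 35.3 ± 2.78 for miR-30e, with the 3p strand higher in 6 of 6 libraries for both (exact sign-flip p = 0.0313, adjusted p = 0.0375). A U that the hairpin also holds counts as templated, as in the 24 nt reads of the 5p strands. The U tail shares of both strands can therefore be too low, and the differences between strands may be smaller. A last base C that was read as U counts as a tail, so the shares can also be too high. On mmu-miR-30a-3p, reads ending 1 templated base beyond the RefSeq form were 1.28% in the mean. Whether such a U was added to the RNA or read in place of C was not tested.

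The 5′ ends set mmu-miR-30a-3p apart from mmu-miR-30e-3p. Reads with another seed than the main one were 23.7% to 26.9% of mmu-miR-30a-3p and 2.86% to 3.42% of mmu-miR-30e-3p, a difference of 22.1 ± 1.16 percentage points (SD) between strands that differ by 1 base at position 18, in 6 of 6 libraries (exact sign-flip p = 0.0313, adjusted p = 0.0375). Nearly all began 1 base further in and carried the seed UUCAGU (24.4% of mmu-miR-30a-3p reads), whose viability score was 54.0. mmu-miR-30d-3p was like mmu-miR-30a-3p, with 19.4% to 27.3% of reads of another seed (exact sign-flip adjusted p = 0.53 between these strands), on 22.3 RPM in the mean. The 5p members had 2.32% to 4.45% of such reads, near the median of 3.24% over the 273 labels, among which mmu-miR-30a-3p ranked 31 from the highest.

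**Figure D5:**
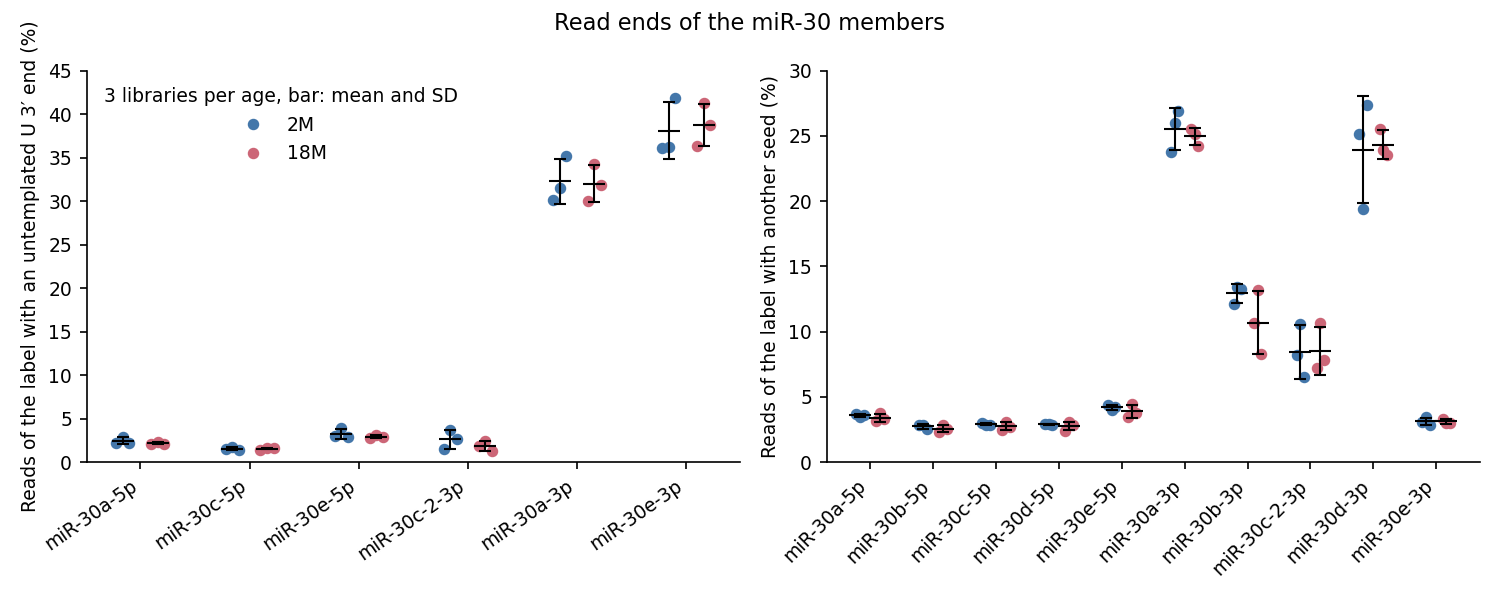
Left, percent of reads of a label with an untemplated U at the 3′ end, for the members laid on a RefSeq hairpin. Right, percent of reads with a seed other than the label's main seed, for all 10 members, both per library at 2M (blue) and 18M (red) with the mean and SD as bars. mmu-miR-30a-3p and mmu-miR-30e-3p stand at 29.95% to 41.9% on the left, and mmu-miR-30a-3p and mmu-miR-30d-3p at 19.4% to 27.3% on the right.

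The end forms were also compared between ages, by the same test that 3 against 3 libraries cannot pass. In mmu-miR-30a-3p the U tail share was 32.3% ± 2.60 (SD, n = 3) in young and 32.0% ± 2.13 in old libraries (exact permutation p = 0.90), and 38.1% ± 3.29 and 38.8% ± 2.45 for mmu-miR-30e-3p (exact permutation p = 0.80). The share of another seed was 25.5% ± 1.62 and 24.97% ± 0.65 for mmu-miR-30a-3p (exact permutation p = 0.70). Of the 54 measures, 3 had ages that did not overlap (5.56%), namely the main read share of mmu-miR-30d-5p (23.6% and 24.9% in mean) and the main read share (36.8% and 28.9%) and mean length (21.83 and 21.89 nt) of mmu-miR-30b-3p. That member stood at 5.84 to 14.0 RPM and its main read at 1.58 to 5.34 RPM. For mean length, the ages did not overlap in 18.7% of the 273 labels with a mean of at least 100 RPM. For the main read share this was not counted over all labels.

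Across the 6 libraries, the labels outside the family whose level was most like that of the summed 5p members were mmu-miR-324-3p (Pearson r = 0.97), mmu-miR-652-3p (0.95), mmu-miR-434-5p (0.95), mmu-miR-7a-1-3p (0.95) and mmu-miR-140-3p (0.92), of 266 labels with a mean of at least 100 RPM. These values describe 6 libraries that were all scaled to the same total. mmu-miR-324-3p was at 1028, 419 and 984 RPM at 2M and 1176, 559 and 1144 RPM at 18M, and like the summed guides it was lowest in replicate 2 of both ages.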

How the data were processed

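Ago1 to Ago4 complexes were pulled down from combined cortex and hippocampus, and RNA of about 19 to 35 nt was made into libraries and sequenced on an Illumina HiSeq instrument. Per the labels, Trim Galore was used. The authors collapsed reads to sequences, of which none here has fewer than 6 reads over the libraries, and deposited them as RPM (reads per 1000000 of a library) with a miRNA label, a second RNA annotation and a viability score per seed, a deposited score that was the mean of 3 mouse cell lines.

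RPM were added up per label, per sequence and per seed. RPM values were whole multiples of 1 read in 100% of cases (tolerance 0.1 of a step), giving 19272046 to 25080484 reads, and 3 reads stood for 0.120 to 0.156 RPM. limma 3.58.1 (trend) was run on log2(RPM + 1) over every label, sequence or seed that averaged 10 RPM or more, and p was adjusted after Benjamini and Hochberg. edgeR 4.0.16 and DESeq2 1.42.0 were run on the recovered counts. Measures with 1 value per library were compared by exact permutation tests, and members within libraries by exact sign-flip tests, which were added after the values were seen. Over 6 libraries a sign-flip p cannot go below 0.0313, and every pair in the same order in all of them has it. Its adjusted p then depends on how many pairs of the list have such an order. In data simulated with the same spread setting for every label, limma recovered 177 of 177 labels changed 4-fold and called 2 of 301 unchanged ones. Smaller changes, of the size seen in the members, were not simulated. No 2 libraries agreed within sampling noise. Named were all members, their most abundant reads (3 per 5p member) and the 5 labels most alike. Members and lists were chosen with earlier results of these data known. Levels of different miRNAs were compared with no correction for how well each sequence enters a library.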

Additional observations from a re-analysis of the deposited data

Results flagged for a closer look

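Reads outside the members also pointed to these hairpins. A further 1647 sequences had no miRNA label, but the second annotation column of the table gave them to a miR-30 hairpin. They summed to 887 RPM in the mean of the 6 libraries (796 to 965 RPM), 1.95% of the level of the members. As a sum over 1647 sequences, this level cannot be set against the 0.120 to 0.156 RPM that 3 reads of 1 sequence stand for. By reads, 96.9% were 1 substitution away from a member read of the same length, and 75.7% carried the seed GUAAAC. They were at 859 ± 54.8 RPM (SD, n = 3) at 2M and 916 ± 81.8 RPM at 18M (exact permutation p = 0.30). What made these substitutions was not tested.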

How the results depend on the processing

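No member, member read or seed of the family passed an adjusted p of 0.05 under any alternative run, and the number called stayed 0. By limma, 0 of 10 members had an unadjusted p under 0.05, and DESeq2 and the fit without 18M replicate 2 each gave 1. Of 402 comparisons with an alternative, 33 turned their direction and 369 did not, and the cause was not tested. The 369 include the numbers called that stayed 0, which have no direction. They also include fits that leave a log2 difference as it is, namely the replicate block, limma without the trend and another minimum level per label. In log2 fold change, mmu-miR-30d-5p turned to 0.021 (median-of-ratios scaling), 0.010 (edgeR), 0.021 (DESeq2) and 0.0070 (most abundant read only), and mmu-miR-30e-3p to 0.058, 0.052, 0.062 and 0.0024. With the most abundant read only, the age difference in the share of 5p reads turned to -0.807 percentage points for mmu-miR-30b-5p and -1.34 for mmu-miR-30c-5p. With sequences of at least 10 RPM only, that in U tails of mmu-miR-30a-3p turned to 0.065 points. For mmu-miR-30b-3p, mmu-miR-30c-2-3p and mmu-miR-30d-3p, under 2 sequences reach 10 RPM, so this alternative was not run. Leaving out 1 library at a time gave log2 ranges of -0.11 to 0.037 for mmu-miR-30e-3p, -0.12 to -0.02 for mmu-miR-30d-5p, -0.037 to 0.19 for mmu-miR-30b-5p, -0.029 to 0.11 for mmu-miR-30a-3p and -0.48 to 0.18 for mmu-miR-30c-2-3p. For the seeds UUUCAG and UGGGAG they were -0.075 to 0.076 and -0.51 to 0.18, and for the arm ratio of miR-30e -0.020 to 0.36. In percentage points they were -0.312 to 0.0017 for the 3p share, -0.698 to 0.834, 0.500 to 1.30, -3.13 to -1.44 and -0.311 to 1.42 for the 5p shares of mmu-miR-30b-5p, mmu-miR-30c-5p, mmu-miR-30d-5p and mmu-miR-30e-5p, -1.36 to 1.19 and -0.559 to 2.58 for the U tails of mmu-miR-30a-3p and mmu-miR-30e-3p, and -1.47 to 0.095 for the other seed of mmu-miR-30a-3p. The differences in mean length ranged from -0.030 to 0.018 nt for mmu-miR-30b-5p, -0.30 to -0.17 nt for mmu-miR-30a-5p, -0.23 to -0.094 nt for mmu-miR-30c-5p, -0.14 to -0.084 nt for mmu-miR-30d-5p and -0.35 to -0.17 nt for mmu-miR-30e-5p.

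The family total differed by 741 to 4820 RPM with 1 library left out, beside 2517.5 RPM with all, lowest without 2M replicate 2 and highest without 18M replicate 2, and by 5311 RPM under median-of-ratios scaling (exact permutation p = 0.10). With the replicate number as a block, 0 members passed (lowest adjusted p = 0.56 in limma) and the family total differed by 2517.5 RPM (exact sign-flip p = 0.25, the smallest for 3 pairs). Libraries of the same number correlated at -0.171, -0.222 and -0.102 in their deviations from the age means, so over all labels they did not deviate together. The family total, however, was lowest in replicate 2 at both ages (40593 and 42059 RPM). The labels do not say whether libraries of the same number belong together, and these values cannot decide it. The read forms of mmu-miR-30b-3p, mmu-miR-30c-2-3p and mmu-miR-30d-3p rest on 5.84 to 32.9 RPM. Setting mmu-miR-30c-5p against the 3p reads of both hairpins, an alternative chosen after seeing the data, gave an age difference of 0.35 in its log2 arm ratio.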
